A study of Mus musculus with 12 samples.

Results

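The 10 genes described here are listed targets of the tumour suppressor p53, followed in 2 fat depots of mice that carry a Cre recombinase transgene. They are Cdkn1a, Mdm2, Bbc3, Plk2, Ccng1, Trp53inp1, Sesn1, Bax, Phlda3 and Gadd45a, taken by name from a table of 24541 rows, and all 10 were found. Every member passed the filter on low counts in brown, in white and in the joint fit. The series measured polyadenylated RNA in interscapular brown fat and in inguinal white fat of mice aged 6 weeks, kept on chow at room temperature and given no treatment. In each depot 2 libraries came from mice with 1 copy of Ucp1-CreEvdr, 2 from mice with 2 copies and 2 from wild type mice, so that 12 libraries formed 6 groups. In this transgene Ucp1 regulatory sequence drives Cre, which places its activity in brown and beige fat cells. No floxed allele is named for any group. The labels do not tell whether the pair of libraries in a group is from different animals, and p-values therefore cover library-to-library spread only, which may be technical.

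In unstressed cells p53 is kept scarce by Mdm2, a ubiquitin ligase that p53 itself induces, and by its relative Mdm4. DNA breaks activate the kinase Atm and its partners, p53 escapes Mdm2, and it binds paired elements in the DNA of its targets. Some targets stop the cell cycle, some favour apoptosis, and others restrain growth signals or metabolism. Cre can cut genomic sequences that resemble its loxP site when its level is high, and p53 targets are among the genes read out to look for such damage. Many of these targets also answer to other regulators, in fat among other tissues.

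The p53 consensus was searched for in RefSeq promoter windows of build GRCm38.p6, which run from 250 bases before to 50 bases after an annotated start. Windows were present for 9 of the 10 members. An exact 10-base element stood in a window of 6 of the 9 (66.7%), against 2582 of 27025 genes with a window (9.55%). The 9 members had 13 windows and the 27025 genes 32851, and a gene with more windows has more places for a match. As the members were listed as p53 targets beforehand, these shares describe the list and test nothing in the samples. The consensus is its own reverse complement, so a match counts on both strands. A full 20-base pair of elements matching at 19 or 20 positions was found for 2 of the 9, Cdkn1a and Ccng1, against 29 of 27025 genes (0.107%). With 17 or more positions matching, the counts were 6 of 9 members and 7.2% of genes. The 10-base elements can lie inside a 20-base pair. The 3 windows printed next belong to members whose RNA is followed closely below. Capitals mark the paired elements and, in Cdkn1a, 1 further 10-base element. Positions are counted from the annotated start of the window named. The Cdkn1a window printed is chr17:29090729-29091028 on the plus strand, with its pair at -51. Another Cdkn1a window, of a start further downstream (chr17:29093519-29093818), held no match of either kind. The Ccng1 window is chr11:40755237-40755536 on the minus strand, with its pair at -195. In the Bbc3 window printed, chr7:16309333-16309632 on the plus strand, the pair at -97 matched at 17 of 20 positions. The other Bbc3 windows, chr7:16310011-16310310 and chr7:16310181-16310480, held no match of either kind.
Cdkn1a: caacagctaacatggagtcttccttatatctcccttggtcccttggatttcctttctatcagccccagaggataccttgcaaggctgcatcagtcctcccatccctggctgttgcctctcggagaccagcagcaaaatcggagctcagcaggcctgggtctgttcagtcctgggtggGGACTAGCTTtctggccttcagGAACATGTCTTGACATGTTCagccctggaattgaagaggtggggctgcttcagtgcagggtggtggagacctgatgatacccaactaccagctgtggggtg
Ccng1: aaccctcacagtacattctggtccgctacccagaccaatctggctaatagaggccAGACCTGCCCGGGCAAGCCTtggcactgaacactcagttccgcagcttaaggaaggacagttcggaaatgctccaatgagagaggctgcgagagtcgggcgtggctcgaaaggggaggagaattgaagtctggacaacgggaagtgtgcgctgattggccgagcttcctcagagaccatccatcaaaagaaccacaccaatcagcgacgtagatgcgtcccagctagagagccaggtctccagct
Bbc3: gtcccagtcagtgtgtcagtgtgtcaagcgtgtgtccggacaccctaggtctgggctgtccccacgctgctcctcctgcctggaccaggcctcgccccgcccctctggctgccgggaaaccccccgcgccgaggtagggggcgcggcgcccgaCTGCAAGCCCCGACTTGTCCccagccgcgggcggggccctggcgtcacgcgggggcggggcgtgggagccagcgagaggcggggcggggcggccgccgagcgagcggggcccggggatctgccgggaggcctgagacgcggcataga
Exact 10-base elements, in capitals within 30 bases, stood at -186 in the Mdm2 window (chr10:117710709-117711008, minus strand), at -173 in a Sesn1 window (chr10:41887189-41887488, plus strand), at -201 in the Bax window (chr7:45466849-45467148, minus strand) and at -40 in the Gadd45a window (chr6:67037358-67037657, minus strand). In Sesn1 and Bax the element lies inside a pair matching at 17 of 20 positions, which starts at -173 and -211. The other part of that pair is in lower case below. The Gadd45a window also holds a pair matching at 17 of 20 positions, at -244, outside the printed bases. The Mdm2 window held no such pair.
Mdm2: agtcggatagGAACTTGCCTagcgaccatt
Sesn1: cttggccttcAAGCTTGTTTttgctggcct
Bax: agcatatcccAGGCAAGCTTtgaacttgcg
Gadd45a: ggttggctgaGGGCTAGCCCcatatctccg
No match of either kind was found in the windows of Phlda3 (gene at chr1:135766119-135769136 in mm10, plus strand) and Plk2 (chr13:110395046-110400844, plus strand). A match describes these letters and does not show binding.

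Total counts ran from 15679884 to 31814056 per library, and libraries of a group correlated at 0.98 to 0.992 on log2 CPM, where CPM are counts scaled to library size. The Cre row followed the labels in brown fat, with 606 and 444 counts with 1 copy, 3243 and 1770 counts with 2 copies, and 0 in both wild type libraries. In white fat 83 counts were found in 1-copy replicate 1, and 0 in the other 5 libraries, which allows up to 3 counts in each. Ucp1 itself averaged 5284 ± 1263 CPM with 1 copy and 10180 ± 2730 CPM with 2 copies, against 6734 ± 1047 CPM in wild type brown fat (SD, n = 2), and ran from 0.170 to 228 CPM in white libraries. The brown adipocyte list (8 genes) summed to between 8151 and 16330 CPM in brown libraries, against 29.5 to 633 CPM in white libraries, each scaled within its depot. Other cell types moved with genotype. The 19 skeletal muscle genes summed to 16.8 to 31.6 CPM in transgenic brown libraries, with 7 to 9 of them at 0, against 3331 and 1360 CPM in wild type brown libraries. Of these genes 14 fell with 1 copy and 12 with 2 copies. White 1-copy replicate 1 held 2987 CPM of the same genes, against 26.0 to 224 CPM in the other 5 white libraries. The 7 B cell genes summed to 1432 to 1597 CPM in transgenic white libraries, against 3.40 and 4.23 CPM in wild type, where Pax5 was at 0. The 7 T cell genes summed to 1053 to 1420 CPM there, against 9.02 and 12.9 CPM in wild type. All 7 genes of both lists rose with 1 copy and with 2 copies. The 8 adipocyte genes summed to 7115 to 15090 CPM in transgenic white libraries, against 32040 and 26850 CPM in wild type, and 7 of them fell with 1 copy and 8 with 2 copies. Other lists fell in part there. With 1 and 2 copies 5 and 5 of 6 Schwann cell genes fell, and 4 and 6 of 7 endothelium genes. Of 8 macrophage genes 4 fell and 1 rose with either copy number, and 1 endothelium gene rose with 1 copy. Of all genes tested 23.6% and 28.9% fell. In bulk tissue fewer cells of a type and less RNA per cell cannot be told apart. The part of these cell types in the results on p53 targets was not tested.

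**Figure D1:**
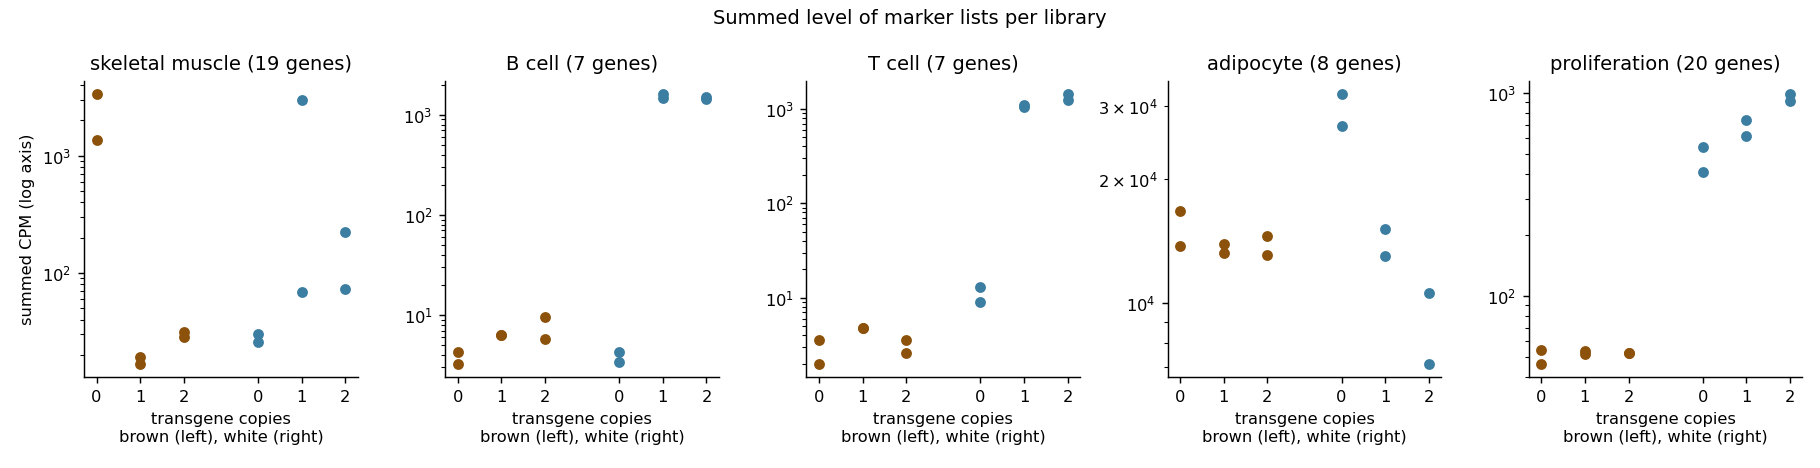
Summed CPM (log axis) of 5 gene lists in each of the 12 libraries, by transgene copies, with brown fat at the left and white fat at the right of each panel; points are libraries. B cell and T cell genes stand at 1053 CPM or more in the 4 transgenic white libraries and at 12.9 CPM or less in all others.

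By the test given below, 7 of the 10 genes differed in level between the wild type depots, where 61.1% of all genes tested did. Per transcript length, brown wild type fat was led by Phlda3, which restrains Akt at the membrane, at 177 ± 15.02 RPKM (CPM divided by exon length in kilobases; SD, n = 2). Cdkn1a, the p21 inhibitor of cyclin-dependent kinases, followed at 128 ± 4.87 RPKM and the cyclin Ccng1 at 65.3 ± 7.76 RPKM. Bax stood at 15.2 ± 2.56 RPKM and Mdm2 at 10.4 ± 1.02 RPKM. The other 5 followed in the order Sesn1 (4.21 RPKM), Bbc3, Trp53inp1, Plk2 and Gadd45a (2.20 RPKM), and no neighbours among these 5 differed by more than the sum of their SDs. White wild type fat was also led by Phlda3, at 170 ± 42.0 RPKM, with Cdkn1a at 40.8 ± 7.30 RPKM and Ccng1 at 37.9 ± 2.03 RPKM, a pair that overlapped. Plk2 (26.6 ± 12.4 RPKM) and Bax (21.1 ± 2.58 RPKM) overlapped as well. Mdm2, Sesn1, Gadd45a and Trp53inp1 came next, with no neighbours further apart than the sum of their SDs. Bbc3 was lowest at 3.94 ± 0.369 RPKM.

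Between the wild type depots 7 of the 10 members passed edgeR's quasi-likelihood test, 2 higher and 5 lower in brown fat. The depots did not overlap for 3 higher and 5 lower members, against 37.4% and 41.5% of all genes. Of all 15559 genes tested, 61.1% passed, 29.0% higher and 32.1% lower. Cdkn1a was 3.14-fold higher in brown fat (log2 difference 1.65 ± 0.30 SE, adjusted p = 0.00129) and Ccng1 1.73-fold higher (0.79 ± 0.10, adjusted p = 9.28e-05). Plk2, a polo-like kinase, was the most unequal member, lower in brown fat by a log2 difference of -3.11 ± 0.41 (adjusted p = 0.000262). Gadd45a, a stress sensor of cell cycle arrest and DNA repair, differed by -1.75 and Sesn1, a stress-induced brake on mTORC1, by -1.09. Trp53inp1, a stress protein of autophagy and cell death, differed by -1.05 (adjusted p = 0.0231) and Bax by -0.48 (adjusted p = 0.00963). The Trp53inp1 call was lost without brown wild type replicate 2 or white wild type replicate 2 (adjusted p up to 0.168), and the Bax call without brown wild type replicate 2 or white wild type replicate 1 (up to 0.0804). Phlda3, Mdm2 and Bbc3 did not pass, with differences of 0.06 ± 0.19, 0.17 ± 0.10 and -0.08 ± 0.15. Tissue content differed between the wild type depots as well. All 7 epithelium, 8 macrophage and 20 proliferation genes listed were lower in brown fat. All 8 brown adipocyte genes and 15 of 19 skeletal muscle genes were higher there. The part of tissue content in the depot differences was not tested.

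**Figure D2:**
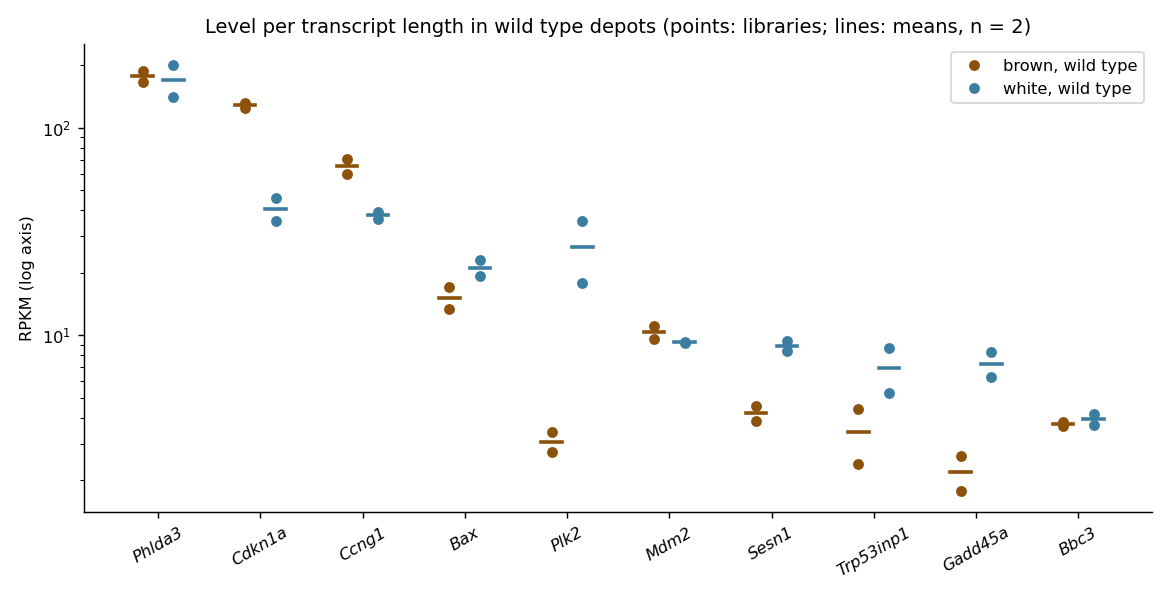
RPKM (log axis) of the 10 genes in wild type brown fat (left of each pair) and wild type white fat (right); points are libraries and lines are means of 2. Plk2 and Gadd45a stand lower in brown fat, Cdkn1a and Ccng1 higher, and Phlda3 overlaps.

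With 1 copy of the transgene in brown fat, Bbc3 and Plk2 rose and no member passed as lower. Of all 13414 genes tested in brown fat 4.07% passed, 1.52% higher and 2.55% lower. Bbc3, which encodes the BH3-only death protein Puma, had 13.6 and 11.5 CPM with 1 copy, against 6.68 and 6.49 CPM in wild type. Plk2 had 25.4 and 19.7 CPM with 1 copy, against 10.1 and 12.8 CPM in wild type. The groups did not overlap for either gene. Bbc3 rose by 1.91-fold (log2 0.93 ± 0.17, adjusted p = 0.0293) and Plk2 by 1.96-fold (0.97 ± 0.18, adjusted p = 0.0278). Either call was lost without brown wild type replicate 1, 1-copy replicate 1 or 1-copy replicate 2 (adjusted p up to 0.279 for Bbc3 and 0.257 for Plk2), and Plk2 did not pass when all 12 libraries were fitted (0.198). Bbc3 rests on 217 and 197 counts with 1 copy, against 117 and 206 counts in wild type.

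Cdkn1a had a larger difference in the other direction that did not pass. It had 179 and 114 CPM with 1 copy, against 365 and 390.1 CPM in wild type brown fat. The groups did not overlap, yet the log2 difference of -1.37 ± 0.32 gave an adjusted p of 0.0888. It passed with DESeq2 (0.0121), with all 12 libraries in the fit (0.0319) and without 2-copy replicate 1 or 2 (0.0388 and 0.0396). Sesn1 had 24.1 and 20.7 CPM with 1 copy, against 14.95 and 12.9 CPM in wild type, a log2 difference of 0.69 ± 0.17 (adjusted p = 0.0618). It passed with no filter on low counts (0.0409), with DESeq2 (0.0248) and with all 12 libraries (0.0233). Phlda3 had 349.6 and 279 CPM with 1 copy, against 214 and 244 CPM in wild type (0.46 ± 0.14, adjusted p = 0.125). Trp53inp1 had 32.1 and 29.2 CPM with 1 copy, against 23.6 and 13.02 CPM in wild type (0.76 ± 0.34, adjusted p = 0.281). In the feedback arm Mdm2 overlapped between groups, at 47.0 and 40.6 CPM with 1 copy against 40.3 and 47.0 CPM in wild type, a log2 difference of 0.0028 ± 0.13. Ccng1 (0.17 ± 0.12), Gadd45a (0.48 ± 0.30) and Bax (-0.27 ± 0.16) did not pass. In 7 members both 1-copy libraries lay above wild type and in 2 below it, where 27.5% and 26.6% of all genes tested did so. The members' median log2 difference was 0.47, against 0.0061 for all genes. The members were chosen with earlier results of these data known. In a further list of other p53 targets (24 tested) the median was 0.026. Of that list 6 lay above wild type and 4 below it without overlap.

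With 2 copies in brown fat no member passed edgeR's test, where 1.29% of all genes tested did, 0.470% higher and 0.820% lower. At an unadjusted p under 0.05 there were 4, and DESeq2 called 2, Plk2 and Trp53inp1, where it called 683 of all 13414 genes. The largest of these 4 p-values by edgeR's test, 0.0403 for Phlda3, ranked 2162 of 13414 genes. An unadjusted p under 0.05 was thus common over all genes. Trp53inp1 had 32.6 and 50.6 CPM with 2 copies, against 23.6 and 13.02 CPM in wild type (1.20 ± 0.34, adjusted p = 0.162). Plk2 had 19.6 and 20.5 CPM with 2 copies, against 10.1 and 12.8 CPM in wild type (0.80 ± 0.18, adjusted p = 0.0772). Bbc3 had 10.2 and 10.95 CPM with 2 copies, against 6.68 and 6.49 CPM in wild type (0.69 ± 0.17, adjusted p = 0.0986). These 3 did not overlap with wild type, nor did Phlda3, at 267 and 318 CPM with 2 copies. Of all genes 23.8% lay above wild type in both libraries and 24.1% below. Cdkn1a had 206 and 344 CPM with 2 copies, both below the wild type libraries (-0.46 ± 0.31, adjusted p = 0.494), and Bax likewise (-0.28 ± 0.16, adjusted p = 0.381). Mdm2 (0.0096 ± 0.13), Ccng1 (-0.09), Sesn1 (0.23) and Gadd45a (0.19) overlapped with wild type. The comparisons of 1 and of 2 copies share the wild type libraries.

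Between 2 copies and 1 copy in brown fat no member passed edgeR's test either, where 1.95% of all genes tested did, 1.24% higher and 0.708% lower. At an unadjusted p under 0.05 there were 2, and DESeq2 called 0, where it called 974 of all 13414 genes. The larger of these 2 p-values by edgeR's test, 0.0327 for Cdkn1a, ranked 2287 of 13414 genes, so such p-values were common. Groups did not overlap for 2 members higher and 4 lower with 2 copies, against 28.8% and 29.5% of all genes. Those with an unadjusted p under 0.05 were Cdkn1a, at 275 ± 97.8 CPM with 2 copies and 147 ± 46.4 CPM with 1 copy (log2 0.91 ± 0.32, adjusted p = 0.192), and Sesn1, at 16.2 ± 2.57 CPM with 2 copies and 22.4 ± 2.39 CPM with 1 copy (-0.46 ± 0.17, adjusted p = 0.166). Cre itself averaged 143 ± 72.3 CPM with 2 copies and 31.9 ± 8.39 CPM with 1 copy.

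**Figure D3:**
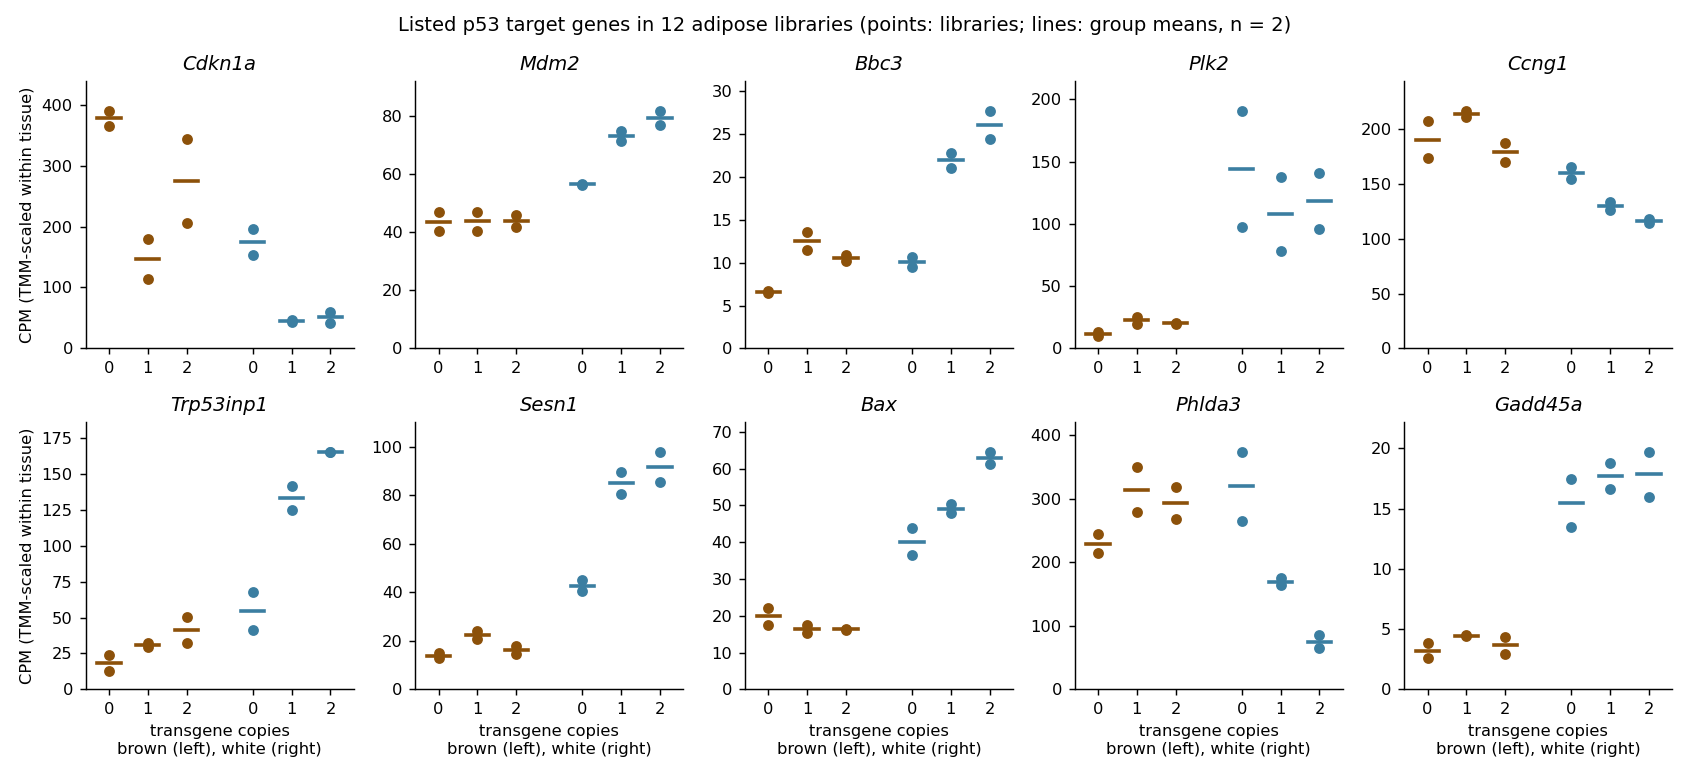
CPM of the 10 p53 target genes in each library by number of transgene copies (0, 1 and 2), brown fat in brown at the left and white fat in blue at the right of each panel; points are libraries and lines are means of 2. In white fat Cdkn1a and Phlda3 drop with the transgene while Bbc3, Trp53inp1 and Sesn1 climb, and in brown fat the Mdm2 libraries of the 3 groups overlap.

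With 1 copy in white fat 7 of the 10 members passed, 4 higher and 3 lower. The background was high: of all 15287 genes tested in white fat 52.0% passed, 28.4% higher and 23.6% lower, and the members' count is to be read against it. The largest difference was in Cdkn1a, at 45.9 and 43.2 CPM with 1 copy, against 153 and 196 CPM in wild type. It fell by 1.97 on the log2 scale (SE 0.22, adjusted p = 0.00137). Phlda3 had 175 and 164 CPM with 1 copy, against 265 and 374 CPM in wild type (-0.92 ± 0.20, adjusted p = 0.0127). Ccng1 had 134 and 126 CPM with 1 copy, against 155 and 166 CPM in wild type (-0.30 ± 0.08, adjusted p = 0.0211). All 3 fell without overlap. The Phlda3 call was lost without 1-copy replicate 1 (0.0553) or 2 (0.0729), and the Ccng1 call without either of those or wild type replicate 2.

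Those that rose were Trp53inp1, Bbc3, Sesn1 and Mdm2. Trp53inp1 had 142 and 125 CPM with 1 copy, against 41.2 and 67.7 CPM in wild type (2.45-fold, log2 1.29 ± 0.23, adjusted p = 0.00711). Bbc3 had 21.1 and 22.8 CPM with 1 copy, against 9.45 and 10.7 CPM in wild type (2.18-fold, log2 1.12 ± 0.13, adjusted p = 0.00112). Sesn1 had 89.6 and 80.4 CPM with 1 copy, against 40.3 and 45.1 CPM in wild type (1.99-fold, log2 0.99 ± 0.11, adjusted p = 0.000959). Mdm2 rose by less, to 74.9 and 71.4 CPM with 1 copy, against 56.7 and 56.4 CPM in wild type (0.37 ± 0.07, adjusted p = 0.00815, and 0.0581 without 1-copy replicate 1). Bax, the pore-forming death effector, had 47.9 and 50.3 CPM with 1 copy, against 43.7 and 36.5 CPM in wild type (0.29 ± 0.11, adjusted p = 0.061). Plk2 varied more within groups than between them, at 78.1 and 138 CPM with 1 copy against 97.3 and 191 CPM in wild type. Gadd45a had 16.6 and 18.8 CPM with 1 copy, against 13.5 and 17.5 CPM in wild type. Its exons overlap those of E230016M11Rik on the other strand, and the strand setting of the counting is not given in the sources used here, so reads of the pair cannot be told apart. In 5 members both 1-copy libraries lay above wild type and in 3 below it, where 40.6% and 37.8% of all genes did.

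With 2 copies in white fat 8 of the 10 members passed, 5 higher and 3 lower, where 61.0% of all genes tested passed, 32.1% higher and 28.9% lower. In 5 members both 2-copy libraries lay above wild type and in 3 below it, against 41.8% and 39.6% of all genes. These were the 7 of 1 copy with Bax added. Each of the 8 calls held without each white library in turn and under every other alternative run. Phlda3 had 64.9 and 84.9 CPM with 2 copies, against 265 and 374 CPM in wild type, and fell by 2.09 on the log2 scale (SE 0.21, adjusted p = 0.000513). Cdkn1a had 60.6 and 41.3 CPM with 2 copies, against 153 and 196 CPM in wild type (-1.78 ± 0.21, adjusted p = 0.00112). Both groups stood well apart. Ccng1 had 115 and 118 CPM with 2 copies, a smaller fall (-0.46 ± 0.08, adjusted p = 0.00329). Trp53inp1 had 166 and 166 CPM with 2 copies, 3.04-fold above wild type (1.61 ± 0.23, adjusted p = 0.00234). Bbc3 had 27.7 and 24.4 CPM with 2 copies, 2.59-fold above wild type (1.37 ± 0.13, adjusted p = 0.000323). Sesn1 was 2.15-fold higher (1.10 ± 0.11, adjusted p = 0.000393), Bax 1.57-fold (0.65 ± 0.11, adjusted p = 0.00262) and Mdm2 1.41-fold (0.49 ± 0.07, adjusted p = 0.00191). The death genes Bbc3 and Bax rose in the same libraries in which the arrest gene Cdkn1a fell. Plk2 (-0.28 ± 0.42) and Gadd45a (0.21 ± 0.18) did not pass. The 4 transgenic white libraries are also those with B cell and T cell transcripts and with less of the adipocyte list.

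**Figure D4:**
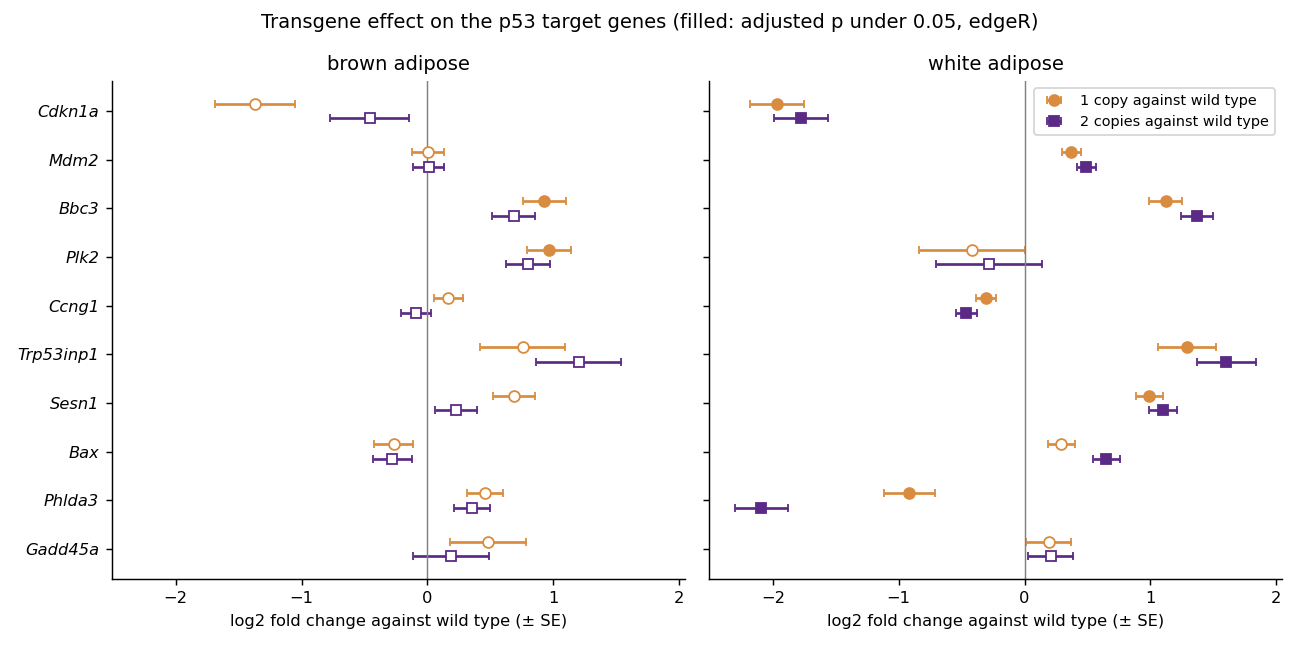
Log2 fold change against wild type, with its SE, of the 10 genes for 1 copy (circles) and 2 copies (squares), brown fat at the left and white fat at the right; filled marks have an adjusted p under 0.05 by edgeR's quasi-likelihood test. Phlda3 lies above 0 in brown fat and below 0 in white fat, and Cdkn1a lies below 0 in both.

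Between 2 copies and 1 copy in white fat no member passed edgeR's test, where 1.86% of all genes tested did, 0.0327% higher and 1.83% lower. At an unadjusted p under 0.05 there were 2, Phlda3 and Bax. The larger of these p-values by edgeR's test, 0.0141 for Bax, ranked 1469 of 15287 genes. Groups did not overlap for 4 members higher and 2 lower with 2 copies, against 27.2% and 28.9% of all genes. Phlda3 averaged 74.9 ± 14.1 CPM with 2 copies and 169 ± 8.06 CPM with 1 copy, a log2 difference of -1.18 ± 0.20 with an adjusted p of 0.0597. It passed with DESeq2, with all 12 libraries in the fit and without wild type replicate 1 or 2. Bax averaged 62.9 ± 2.43 CPM with 2 copies and 49.1 ± 1.67 CPM with 1 copy (0.36 ± 0.11, adjusted p = 0.147). Of the other members that passed against wild type, Cdkn1a stood at 0.19 ± 0.21, Sesn1 at 0.11 ± 0.11, Bbc3 at 0.25 ± 0.12, Trp53inp1 at 0.31 ± 0.23, Mdm2 at 0.12 ± 0.07 and Ccng1 at -0.16 ± 0.08 here.

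Whether the difference between transgenic and wild type groups was unlike in the 2 depots was tested as the brown log2 difference minus the white one. Genotype runs with the muscle and lymphocyte transcripts given above, so the action of the transgene cannot be told apart from tissue content here. With 1 copy 3 members passed, 2 above and 1 below 0, where 32.6% of all 15559 genes did, 13.8% above and 18.8% below. With 2 copies 6 passed, 2 above and 4 below 0, where 42.2% of genes did, 20.6% above and 21.7% below. Among those that passed Phlda3 differed most, by 1.38 ± 0.27 with 1 copy (adjusted p = 0.00499) and by 2.44 ± 0.28 with 2 copies (adjusted p = 0.000145), and held under every alternative and without each library. Plk2 had a difference of 1.39 ± 0.54 with 1 copy that did not pass (adjusted p = 0.0837). With 2 copies Bax (-0.93 ± 0.19, adjusted p = 0.00298) and Sesn1 (-0.88 ± 0.20, adjusted p = 0.00624) also held throughout. Bbc3 (-0.69), Mdm2 (-0.49) and Cdkn1a (1.32, adjusted p = 0.032) passed with 2 copies but were lost without some libraries, 3, 5 and 6 of the 12 in that order of genes. With 1 copy Ccng1 (0.48, adjusted p = 0.0294) was lost without 6 of the 12 libraries and Bax (-0.55, adjusted p = 0.0471) without 10. The scaling between depots matters here: the median of all genes was 0.009 with 1 copy and -0.032 with 2 copies, and 0.148 and 0.088 with median-of-ratios factors. Under those factors and with DESeq2 the Bax difference with 1 copy and the Mdm2 difference with 2 copies did not pass, nor did the Bbc3 difference with 2 copies with DESeq2. The Ccng1 difference with 2 copies passed under those factors (adjusted p = 0.0198) and with DESeq2 (0.00715), and Plk2 passed with DESeq2 with 1 copy (0.00549) and 2 copies (0.0303).

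Trp53 and further genes of the p53 circuit moved in white fat. Of 12 genes of the p53 circuit 9 rose with 1 copy and 10 with 2 copies, and none fell, where 28.4% and 32.1% of all genes tested in white fat rose. Trp53, the gene of p53, had 124 and 128 CPM with 1 copy and 139 and 141 CPM with 2 copies, against 57.2 and 55.2 CPM in wild type white fat (log2 1.16 ± 0.07, adjusted p = 9.08e-05, and 1.32 ± 0.07, adjusted p = 4.57e-05). Mdm4 rose by 1.15 with 1 copy and 1.31 with 2 copies, and the damage kinase Atm by 1.67 and 1.84. In brown fat Trp53 did not pass, at 20.2 and 18.7 CPM with 1 copy and 17.6 and 17.1 CPM with 2 copies, against 20.4 and 20.01 CPM in wild type. Its depot difference was -1.21 with 1 copy (adjusted p = 6.1e-05) and -1.55 with 2 copies (adjusted p = 1.16e-05). In brown fat with 1 copy the p53 kinase Dyrk2 (-0.70, adjusted p = 0.032) and the break-binding Trp53bp1 (-0.49, adjusted p = 0.0431) fell, and Dyrk2 was higher with 2 copies than with 1 (0.69, adjusted p = 0.049). In brown fat Mdm4 did not pass, at 0.19 with 1 copy and -0.25 with 2 copies.

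A further list held other p53 targets. In brown fat 0 of 24 tested passed with 1 copy or with 2 copies by edgeR's test, and 4 and 5 had an unadjusted p under 0.05. In white fat 9 of 28 rose and 5 fell with 1 copy, and 7 rose and 6 fell with 2 copies, where 52.0% and 61.0% of all genes passed in either direction, and the share of this list was below both. Ddb2, of nucleotide excision repair, rose by 1.37 and 1.501, the antiproliferative Btg2 by 1.52 and 1.47, and the epoxide hydrolase Ephx1 by 0.71 and 0.74, while Ei24 fell (-0.60 and -0.81). Among the BCL2 family in brown fat, 2 of 13 further genes tested rose with 1 copy, where 1.52% of all genes did. These were the BH3-only genes Bmf (log2 1.32 ± 0.21, adjusted p = 0.0196) and Bcl2l11 (1.11 ± 0.23, adjusted p = 0.0392). The other 11, with the BH3-only genes Bid and Bad among them, did not pass. Bmf had 10.9 and 10.8 CPM with 1 copy, against 4.34 and 4.35 CPM in wild type, and was lower with 2 copies than with 1 (-1.29 ± 0.21, adjusted p = 0.0316). In white fat 9 of 16 family genes rose and 3 fell with 1 copy, and 10 rose and 3 fell with 2 copies. Of all genes there 28.4% and 32.1% rose, and 23.6% and 28.9% fell. The smallest adjusted p-values were those of the survival genes Bcl2 (2.14 and 2.30) and Bcl2a1b (4.36 and 4.89), the second a near-identical copy of its relatives Bcl2a1a and Bcl2a1d and uncertain for that reason. Bcl2l11 rose there too (1.54 and 1.65).

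Of 28 DNA repair genes 16 rose and 1 fell with 1 copy in white fat, and 19 rose and 2 fell with 2 copies, among them Mdc1 (1.06 and 1.15), Parp1 (0.90 and 0.86) and Topbp1 (0.95 and 1.14). In brown fat 0 of 24 passed with either copy number by edgeR's test, where 4.07% and 1.29% of all genes passed. An unadjusted p under 0.05, common over all genes, was found for 6 and 4 of them. Of 11 genes of senescence and DNA sensing 5 rose and 1 fell with 1 copy in white fat, and 6 rose and 1 fell with 2 copies. The DNA sensor Aim2 rose by 2.49 and 2.64 and the sensing adaptor Tmem173 by 1.67 and 1.91. Of 20 proliferation genes 8 rose with 1 copy and 15 with 2 copies in white fat, and none fell. Mki67 rose by 1.00 and 1.48, and Mcm2 by 1.20 and 1.53. Of 15 relatives of the members 5 rose and 5 fell with 1 copy in white fat, and 6 rose and 3 fell with 2 copies. Sesn3 rose by 2.25 and 2.31 and Gadd45b by 2.43 and 3.15, while Trp53inp2 fell (-1.03 and -1.63). Cdkn1b, the p27 relative of Cdkn1a, rose in white fat (0.95 and 0.96) and with 1 copy in brown fat (0.60 ± 0.11, adjusted p = 0.0277). These counts stand beside the white backgrounds of 52.0% and 61.0% of genes passing. By direction, 28.4% and 32.1% of all genes rose with 1 and 2 copies, and 23.6% and 28.9% fell.

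The genes closest in pattern to each member were taken by the root mean square difference of tissue-centred log2 CPM over the 12 libraries, among 11925 genes. Nearest to Phlda3 were Deptor (0.103), Gbe1 (0.117) and Pygl (0.149), where Phlda3 itself varied by 0.637 on that scale. For Bbc3 they were Tbc1d8 (0.113), Miip (0.136) and Zfp472 (0.138), and Miip was also near Sesn1 (0.1), with Krba1 (0.098) and Casp2 (0.134). Cdkn1a had no neighbour as close, with Ppp1r3c at 0.292, Jdp2 at 0.308 and Gja1 at 0.31 against its own 0.784. Trp53inp1 was nearest to Rgs11 (0.223) and Plk2 to Arhgef19 (0.214). Mdm2 and Gcc1 differed by 0.0457, Ccng1 and Cbwd1 by 0.0523, and Bax and Mif by 0.084, each for a member that itself varied little.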

How the data were processed

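RNA was extracted from brown and white adipose tissue with Trizol and columns, and libraries were made with a stranded mRNA kit, per the labels. The deposited table holds raw counts per gene, and per the submitters' processing notes STAR and featureCounts (Subread) were used with mouse build mm10. Versions, annotation and strand setting are not given in the sources used here.

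The 10 genes and the other lists were chosen with earlier results of these data known. Each depot was fitted by itself (6 libraries), and depots were compared in a fit of all 12. R 4.3.3 with edgeR 4.0.16 was used: filterByExpr, TMM factors, the robust quasi-likelihood test (two-sided), Benjamini-Hochberg adjustment over all genes and a threshold of 0.05. The SE is the log2 fold change over the root of F. CPM uses the factors of the depot's fit; RPKM uses those of the joint fit and exon lengths of the GENCODE vM21 annotation (mm10). A group passes without overlap when both its libraries lie beyond both of the other. Alternatives were DESeq2 1.42.0, median-of-ratios factors, no filter, a mean CPM of at least 1, all 12 libraries in 1 fit and leaving out each library. All 10 members were named in every comparison. The CRE row was taken as that of the transgene, and Ucp1 as the mouse gene whose regulatory sequence drives Cre. Ucp1 was also counted in wild type libraries, which had no CRE counts. Of the other lists up to 4 genes that passed were taken by smallest adjusted p, with Trp53 and Mdm4 always, and for each called member the 3 most alike genes; of these only some are printed. The result of 1 gene is not reported here. Scripts were tested on simulated data. Counts of 15679884 to 31814056 per library set the precision, and limits from 0 counts cover counting error only. Figures were drawn with matplotlib 3.10.9.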

Additional observations from a re-analysis of the deposited data

Results flagged for a closer look

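Differences between the depots in the contrast of transgenic against wild type groups, brown minus white on the log2 scale, passed edgeR's quasi-likelihood test for these members. With 1 copy they were Ccng1 (0.48 ± 0.14), Bax (-0.55 ± 0.19) and Phlda3 (1.38 ± 0.27). With 2 copies they were Cdkn1a (1.32 ± 0.42), Mdm2 (-0.49 ± 0.15), Bbc3 (-0.69 ± 0.20), Sesn1 (-0.88 ± 0.20), Bax (-0.93 ± 0.19) and Phlda3 (2.44 ± 0.28). Skeletal muscle genes were low in transgenic brown libraries, and lymphocyte genes were high in transgenic white libraries. Their part in these differences was not tested.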

How the results depend on the processing

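The number of members called with 1 copy in brown fat was 2, became 4 with DESeq2, and ran from 0 to 3 when each library was left out. With 2 copies in brown fat it was 0, and 1 with no filter on low counts and 2 with DESeq2. With 1 copy in white fat it was 7 and ran from 4 to 8 without single libraries. For 2 copies against 1 copy in white fat it was 0, and 1 with DESeq2 and with all 12 libraries in the fit, and 0 to 1 without single libraries. The depot difference with 1 copy ran from 1 to 4 members without single libraries. Counts over all genes moved as well. With DESeq2 they went from 546 to 1044 of 13414 genes with 1 copy in brown fat and from 173 to 683 with 2 copies. With no filter the count with 2 copies was 353 of 17523 genes. For 2 copies against 1 copy in white fat 285 of 15287 genes became 1221 with DESeq2. With 1 copy in brown fat the count over all genes fell without 1-copy replicate 1 or 2 and rose without wild type replicate 2. The cause of these changes was not tested. A lone library left in a group is assumed to vary like the others.

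Signs turned only for members whose difference did not pass. With 1 copy in brown fat the Mdm2 value became -0.0022 with median-of-ratios factors, -0.0044 with no filter and -0.0028 with DESeq2, and ran from -0.1139 to 0.11 without single libraries. For 2 copies against 1 copy in brown fat Mdm2 became -0.0071 with all 12 libraries; without single libraries Mdm2 ran from -0.092 to 0.1193, Bax from -0.103 to 0.0949, Phlda3 from -0.2529 to 0.0723 and Plk2 from -0.3355 to 0.0246. With 2 copies in brown fat the ranges were -0.226 to 0.0422 for Ccng1, -0.127 to 0.4572 for Gadd45a and -0.1067 to 0.1204 for Mdm2. For the depot difference with 2 copies Gadd45a became 0.0970 with median-of-ratios factors and 0.0976 with DESeq2, ran from -0.3322 to 0.2578 without single libraries, and Trp53inp1 ran from -0.81 to 0.073. Between wild type depots Bbc3 ran from -0.1699 to 0.0278 and Phlda3 from -0.1758 to 0.3392. In white fat Plk2 ran from -0.8822 to 0.1458 with 1 copy, from -0.687 to 0.2812 with 2 copies and from -0.2158 to 0.6008 between them, where Cdkn1a ran from -0.1071 to 0.443 and Gadd45a from -0.1445 to 0.1584.

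No paired analysis was possible because the labels give library numbers but no replicate numbers, and which depots share a mouse is not stated. With 2 libraries a group, differences such as that of Gadd45a in brown fat, on 56 to 83 counts per library, were not resolved at this depth.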
